A study of Homo sapiens with 4 samples.

Results

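A set of 10 genes was followed through RNA-seq of cells with reduced NME7: SLC7A11, CHAC1, CTH, GCLC, GCLM, GSS, GSR, GPX4, AIFM2 and ACSL4. They cover cystine import, the making of cysteine from methionine, glutathione synthesis, recycling and breakdown, and the balance of lipid peroxidation that sets ferroptosis. They are 10 of the 58735 genes in the deposited tables, and each symbol matched a single gene of GENCODE release 29. The set was drawn up because SLC7A11 and CHAC1 were lower in shNME7, so the difference between shNME7 and shCtrl is given for the 10 genes as a description and is not tested on them.

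The study holds 4 libraries labelled Huh7, a line established from a human liver cancer: 2 carry a control short hairpin RNA (shCtrl 1 and 2) and 2 carry a hairpin that targets NME7 (shNME7 1 and 2). No drug, dose or time is named in the labels, and for the hairpin sequence and for clone or pool the answer is not given in the sources used here. The labels do not tie the 2 libraries of a group to separate cultures, and their spread may be technical. Levels are in FPKM, the fragments of a gene scaled by the authors to its length and to the library, which allows levels of different genes to be compared.

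NME7 itself was measured at 3.64 FPKM in shCtrl 1, 3.93 in shCtrl 2, 0.835 in shNME7 1 and 0.626 in shNME7 2, so the targeted transcript was lower in both shNME7 libraries. The libraries held 14877906 to 16991397 fragments, recovered from the FPKM values, and a mitochondrial share of 4.24% to 6.59% that overlapped between the groups. The cell label was not borne out by its markers. Of 10 hepatocyte and hepatoma markers 0 reached a mean of 1 FPKM, their summed level was 0.0516 to 0.104 FPKM in shCtrl and 0.0858 to 0.110 FPKM in shNME7, and APOA1, APOB, APOH, GPC3 and FGB were at 0 in all 4 libraries. ALB and AFP, the albumin and alpha-fetoprotein genes, each had fragments in only 1 library. Of 7 fibroblast markers 4 reached 1 FPKM (COL1A1, COL3A1, LUM and PDGFRB), with a sum of 92.1 to 103 FPKM in shCtrl and 97.3 to 98.7 FPKM in shNME7, while PDGFRA was at 0. Of 6 leukocyte markers 0 and of 5 endothelial markers 1 (CDH5) did so, and PTPRC was at 0. The cells are therefore called the libraries labelled Huh7, and their levels are not taken as those of a liver line. What these cells were was not tested further.

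Cystine, the oxidised dimer of cysteine, enters cells through an antiporter that exports glutamate, made of the transport subunit SLC7A11 and the heavy chain SLC3A2. Cysteine, imported this way or made from methionine by transsulfuration, limits the synthesis of glutathione, a tripeptide of glutamate, cysteine and glycine. Glutathione is the reductant with which GPX4 removes lipid peroxides from membranes. When that removal fails, iron-dependent peroxidation of polyunsaturated phospholipids kills the cell, a death called ferroptosis. The transcription factors ATF4, active when amino acids are scarce, and NRF2 (gene NFE2L2), active under oxidative stress, both induce genes of this pathway.

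In outline, the cystine importer SLC7A11 and the glutathione-degrading enzyme CHAC1 stood 2.79-fold and 2.72-fold lower in shNME7, while none of the other 8 members differed by more than 0.38 on the log2(FPKM + 1) scale. The shNME7 libraries were both lower than either shCtrl library for SLC7A11, CHAC1, GCLM, ACSL4 and GCLC, 5 of 10 members. Among all 12866 genes with a mean of at least 1 FPKM, 18.4% lay below in this way and 17.8% above. No member (0) lay above, and for CTH, GSS, GSR, GPX4 and AIFM2 the groups overlapped. Since the members were chosen on this contrast, nothing is read from the count. The median difference was -0.09 over the 10 members (-0.20 without shNME7 1) and 0.01 over all 12866 genes. The fragments behind a member's value in a single library ranged from 289 to 3884.

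**Figure D1:**
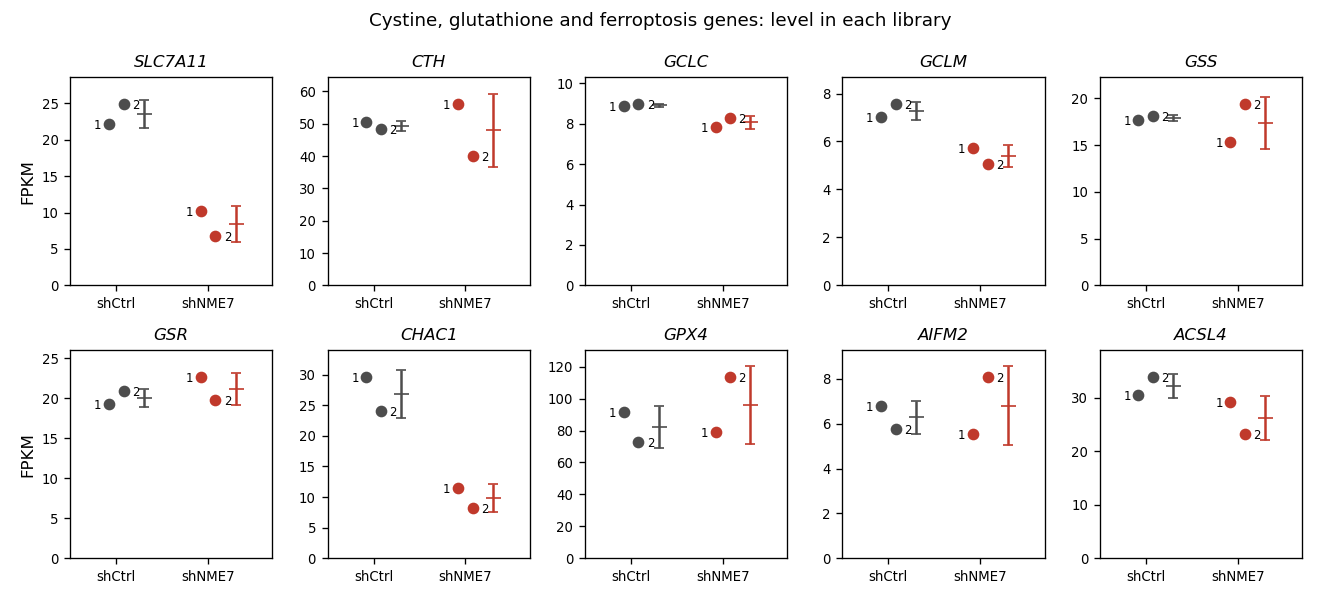
FPKM of each of the 10 genes in each library: grey points are shCtrl 1 and 2, red points shNME7 1 and 2 (numbers beside the points), with the mean and SD of each group (n = 2) to their right, on axes that start at 0. SLC7A11 and CHAC1 show the wide gaps (22.2 to 24.9 against 6.71 to 10.2 FPKM, and 24.1 to 29.6 against 8.27 to 11.5 FPKM), while in CTH, GSS and AIFM2 the shNME7 values lie on either side of both shCtrl values.

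SLC7A11 (ENSG00000151012, chromosome 4, from 138164097 to 138242349, minus strand, GRCh38) encodes the cystine transport subunit. Its level was 22.2 FPKM in shCtrl 1, 24.9 in shCtrl 2, 10.2 in shNME7 1 and 6.71 in shNME7 2, from 3409, 3866, 1474 and 1100 fragments. Both shNME7 libraries were far below both shCtrl libraries, and shNME7 2 was the lower of the pair by a factor of 1.51. Group means were 23.5 ± 1.87 and 8.44 ± 2.44 FPKM (SD, n = 2), 64.1% lower, and the log2(FPKM + 1) difference of shNME7 minus shCtrl was -1.40 (SE 0.20) in limma-trend, the linear model fitted to all genes. In limma-voom, which models the recovered fragments, the difference was -1.51 (SE 0.19), the 44th lowest of 15112 genes. The 95% Poisson intervals of the 4 values, which cover counting error only, were 21.5 to 23.0, 24.1 to 25.6, 9.66 to 10.7 and 6.32 to 7.12 FPKM. In shCtrl as in shNME7, the 2 libraries thus differed from each other beyond counting error.

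An antisense transcript, SLC7A11-AS1, shares 865 bases, 8.97% of the SLC7A11 exon length, and whether the counting used strand is not stated in the labels. SLC7A11-AS1 was itself at 0.663 and 0.996 FPKM in shCtrl and 0.346 and 0.210 FPKM in shNME7, and held at most 99 fragments, against 1100 or more for SLC7A11. Its part in the SLC7A11 value was not tested.

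SLC3A2, the heavy chain that carries SLC7A11 and other amino acid transporters to the cell surface, was at 149 and 111 FPKM in shCtrl and 90.2 and 102 FPKM in shNME7. Both shNME7 libraries were lower, but the log2 difference of -0.42 (SE 0.19) did not pass in limma-trend (adjusted p 0.773) or in limma-voom (adjusted p 0.575), and was -0.21 without shCtrl 1. The heavy chain was thus the more abundant subunit transcript throughout. The ratio of SLC7A11 to SLC3A2, both per length, was 0.149 and 0.223 in shCtrl and 0.113 and 0.0655 in shNME7. SLC7A11 was chosen because it was lower in shNME7, so nothing is read from the lower ratio.

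CTH encodes cystathionine gamma-lyase, which releases cysteine in the last step of transsulfuration. It lies on chromosome 1 (70411218 to 70439851, plus strand) and was the member with the second highest level. CTH stood at 50.5 and 48.2 FPKM in shCtrl and at 56.0 and 39.9 FPKM in shNME7. One shNME7 library lay above and the other below both controls, and the difference of -0.06 (SE 0.19) became 0.18 without shNME7 2 and -0.30 without shNME7 1. The ratio of SLC7A11 to CTH was 0.440 and 0.515 in shCtrl and 0.182 and 0.168 in shNME7. As SLC7A11 was chosen for its lower level in shNME7, nothing is read from this ratio either.

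CBS, the enzyme that forms cystathionine for CTH, stood at 7.46 and 2.75 FPKM in shCtrl and at 4.80 and 4.26 FPKM in shNME7. The shNME7 values lay between the 2 control values, and the difference of -0.03 did not pass (limma-trend adjusted p 0.990). CBS has a near-identical copy, CBSL, so its value is uncertain.

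Glutathione is made in 2 steps. The first and rate-limiting step is run by glutamate-cysteine ligase, a pair of the catalytic subunit GCLC and the modifier GCLM that raises its activity. The modifier showed the larger difference. GCLM (chromosome 1, 93885205 to 93909456, minus strand) stood at 7.01 and 7.55 FPKM in shCtrl and at 5.72 and 5.06 FPKM in shNME7. All values rested on 466 to 660 fragments and the groups did not overlap. Means were 7.28 ± 0.378 and 5.39 ± 0.466 FPKM (SD, n = 2), 26.0% lower, a log2 difference of -0.38 (SE 0.14).

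GCLC (chromosome 6, 53497341 to 53616970, minus strand) stood at 8.87 and 8.96 FPKM in shCtrl and at 7.83 and 8.31 FPKM in shNME7. The groups did not overlap, but the gap was narrow: means of 8.92 ± 0.0627 and 8.07 ± 0.335 FPKM, 9.51% lower, with a difference of -0.13 (SE 0.13). With a trend on GC content and exon length removed from each library the GCLC groups overlapped and the difference was -0.03 by limma-trend and -0.02 by limma-voom. The ratio of GCLC to GCLM was 1.27 and 1.19 in shCtrl and 1.37 and 1.64 in shNME7.

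GSS, glutathione synthetase, adds glycine in the second step (chromosome 20, 34928433 to 34956027, minus strand). It stood at 17.7 and 18.1 FPKM in shCtrl and at 15.4 and 19.4 FPKM in shNME7, so that the shNME7 libraries lay on either side of the controls. The difference was -0.05 (SE 0.16), and became 0.11 without shNME7 1 and -0.21 without shNME7 2. GSR, glutathione reductase on chromosome 8, returns oxidised glutathione to its reduced form. It stood at 19.3 and 20.9 FPKM in shCtrl and at 22.6 and 19.7 FPKM in shNME7, with overlapping groups and a difference of 0.07 (SE 0.14) that became -0.02 without shNME7 1.

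CHAC1 encodes a cytosolic gamma-glutamyl cyclotransferase that breaks glutathione down, and is a well-known target of ATF4. Its transcript (ENSG00000128965, chromosome 15, 40952962 to 40956519 on the plus strand) stood at 29.6 and 24.1 FPKM in shCtrl and at 11.5 and 8.27 FPKM in shNME7, from 968, 799, 355 and 289 fragments. Neither shNME7 library reached the level of the lower control. Means were 26.8 ± 3.88 and 9.87 ± 2.27 FPKM (SD, n = 2), 63.2% lower. The log2 difference was -1.36 (SE 0.19) by limma-trend and -1.46 (SE 0.21) by limma-voom, the 50th lowest of 15112. The 95% Poisson interval was 27.7 to 31.5 FPKM in shCtrl 1 and 22.4 to 25.8 FPKM in shCtrl 2. It was 10.3 to 12.7 FPKM in shNME7 1 and 7.34 to 9.28 FPKM in shNME7 2.

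CHAC2 is the paralog with the same activity. It stood at 17.8 and 20.2 FPKM in shCtrl and at 22.7 and 22.8 FPKM in shNME7, higher in both, with a difference of 0.25 that did not pass (adjusted p 0.795 in limma-trend, 0.761 in limma-voom). It was 0.16 without shCtrl 1. The ratio of CHAC1 to CHAC2 was 1.66 and 1.19 in shCtrl and 0.505 and 0.363 in shNME7. CHAC1 was thus the more abundant of the pair in both controls and CHAC2 in both shNME7 libraries. As CHAC1 was chosen because it was lower in shNME7, nothing is read from this change of order.

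Promoters are shown for CHAC1, which has the wide difference, and for GCLM and AIFM2, which hold a match to the antioxidant response element. The sequences are from RefSeq on GRCh38.p14 and cover 250 bases up to the annotated start, on the gene's strand. RefSeq windows were matched for 7 of the 10 members, and SLC7A11, GSS and GSR were without one. Capitals mark matches to the C/EBP-ATF response element (CARE), a site of ATF4, searched as TGATGNAAN. They also mark matches to the antioxidant response element (ARE), the site of NRF2, searched as TGACNNNGC. Both strands were searched and N is any base. The 3 matches are all on the opposite strand, so the capitals show the complement read backwards.
CHAC1 promoter, chr15:40953221-40953470, plus strand: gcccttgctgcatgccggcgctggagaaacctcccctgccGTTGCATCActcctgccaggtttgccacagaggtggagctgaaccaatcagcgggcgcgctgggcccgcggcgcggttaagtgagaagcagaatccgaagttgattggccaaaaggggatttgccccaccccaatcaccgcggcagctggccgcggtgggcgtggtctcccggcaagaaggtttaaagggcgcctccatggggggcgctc
GCLM promoter, chr1:93909431-93909680, minus strand: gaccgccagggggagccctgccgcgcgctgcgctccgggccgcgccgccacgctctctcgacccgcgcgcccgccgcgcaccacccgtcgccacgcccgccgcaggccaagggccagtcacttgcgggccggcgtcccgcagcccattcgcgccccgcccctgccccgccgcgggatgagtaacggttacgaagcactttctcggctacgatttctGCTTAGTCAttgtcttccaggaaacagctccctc
AIFM2 promoter, chr10:70132826-70133075, minus strand: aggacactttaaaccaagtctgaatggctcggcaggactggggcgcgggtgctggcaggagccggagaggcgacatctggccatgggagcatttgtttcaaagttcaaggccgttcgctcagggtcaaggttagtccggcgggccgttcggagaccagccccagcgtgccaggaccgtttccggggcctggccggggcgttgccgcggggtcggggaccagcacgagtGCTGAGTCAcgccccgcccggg

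The CHAC1 match, TGATGCAAC on its own strand, lies 210 to 202 bases before the start. The CARE letters occur in 3.13% of 35116 RefSeq promoter windows of this length, and CHAC1 was the only member of the 7 with a match. The GCLM match (TGACTAAGC) lies 34 to 26 bases before the start and the AIFM2 match (TGACTCAGC) 22 to 14 bases before it. These starts are RefSeq's, and the GENCODE gene begins further upstream in all 3: the whole CHAC1 window and the AIFM2 match lie inside the gene interval given for the levels, and the GCLM match lies at its edge. The ARE letters occur in 10.9% of the windows. A match describes these letters only, and no match in the windows of CTH, GCLC, GPX4 and ACSL4 says nothing of the factors elsewhere. Of the genes with a match to the ARE letters, GCLM was lower in both shNME7 libraries, and AIFM2 overlapped between the groups. Whether NRF2 acts at either match was not tested.

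GPX4, the selenium-containing peroxidase that reduces phospholipid hydroperoxides, had the highest level of the members. The gene (chromosome 19, 1103926 to 1106791, plus strand) stood at 91.4 and 72.8 FPKM in shCtrl and at 78.9 and 113 FPKM in shNME7. The shNME7 libraries differed by more than the group means did, with 96.1 ± 24.3 against 82.1 ± 13.1 FPKM (SD, n = 2). The difference was 0.21 (SE 0.22). GPX4 transcripts are GC-rich (63.4%), and over all tested genes the difference between the groups rose with GC content (Spearman's rho was 0.42, taken across genes and not across replicates). With the trend on GC content and length removed the GPX4 difference was 0.02 by limma-trend and -0.02 by limma-voom, and with a library left out it ran from -0.05 (without shNME7 2) to 0.47 (without shNME7 1).

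AIFM2, known as FSP1, is an oxidoreductase that regenerates reduced coenzyme Q and holds back lipid peroxidation independently of glutathione. It had the lowest level of the members in shCtrl (chromosome 10, 70098223 to 70132934, minus strand). AIFM2 stood at 6.80 and 5.76 FPKM in shCtrl and at 5.56 and 8.07 FPKM in shNME7. Its lowest and its highest value were both in shNME7, and the difference of 0.09 (SE 0.19) became -0.02 without shCtrl 2 and -0.15 without shNME7 2. NQO1, another quinone reductase and an NRF2 target, was at 40.3 and 38.4 FPKM in shCtrl and 37.2 and 41.7 FPKM in shNME7, with overlapping groups (difference 0.0023, limma-trend adjusted p 0.998, sign reversed under quantile normalization to -0.07).

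ACSL4 activates arachidonic and adrenic acid for entry into phospholipids, which supplies the lipids that peroxidise in ferroptosis. The gene (chromosome X, 109624244 to 109733403, minus strand) stood at 30.6 and 33.8 FPKM in shCtrl and at 29.2 and 23.2 FPKM in shNME7. The groups did not overlap, though shNME7 1 lay close to shCtrl 1. Means were 32.2 ± 2.28 and 26.2 ± 4.20 FPKM (SD, n = 2), 18.6% lower. The difference of -0.29 (SE 0.16) was -0.18 with the GC and length trend removed, -0.14 without shNME7 2 and -0.45 without shNME7 1.

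Its paralog ACSL3, which activates monounsaturated and saturated fatty acids among others, stood at 18.8 and 21.1 FPKM in shCtrl and at 15.5 and 14.3 FPKM in shNME7. The ACSL3 difference of -0.40 did not pass (limma-trend adjusted p 0.728, limma-voom 0.561). The ratio of ACSL4 to ACSL3 was 1.63 and 1.60 in shCtrl and 1.88 and 1.63 in shNME7.

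**Figure D2:**
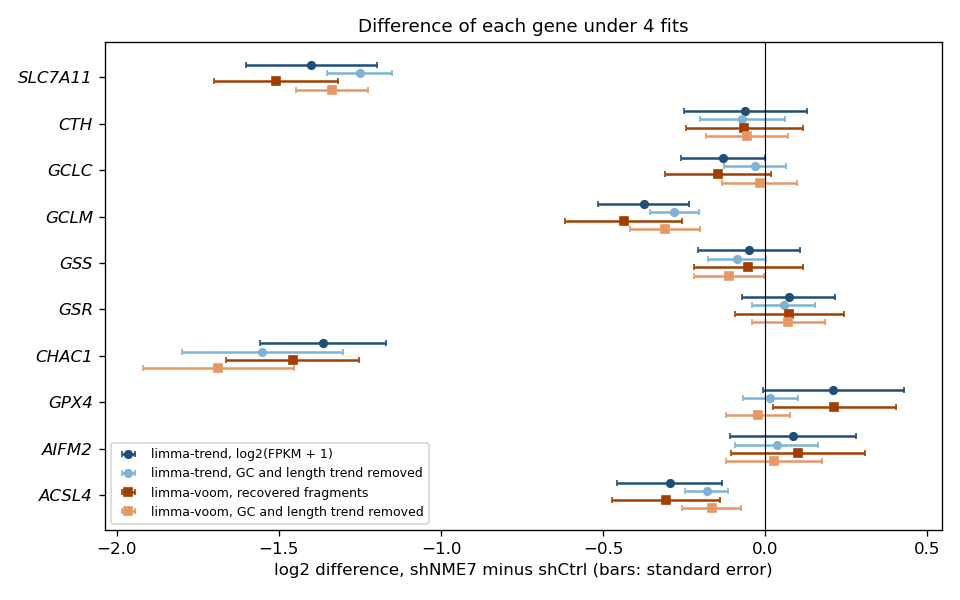
Difference of each gene between shNME7 and shCtrl on the log2 scale, with standard errors, under limma-trend (circles) and limma-voom (squares), before (dark) and after (light) removal of a trend on GC content and exon length. SLC7A11 lies between -1.51 and -1.25 and CHAC1 between -1.69 and -1.36 in the 4 fits. CTH, GCLC, GCLM, GSS and ACSL4 stay below 0, GSR and AIFM2 stay above 0, and GPX4 moves from 0.21 to -0.02.

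Over all genes, limma-trend called 0 of 12866 genes at an adjusted p under 0.05 (0% of genes tested), with 859 genes at an unadjusted p under 0.05 and a smallest adjusted p of 0.310. It called 0 of the 10 members. limma-voom called 16 of 15112 genes, 0.106%, of which 14 were lower (0.0926%) and 2 higher (0.0132%), with 1197 genes at an unadjusted p under 0.05. SLC7A11 and CHAC1 were the 2 members among the 14, and nothing is read from that count, since the members were chosen on it. Once the GC and length trend had been removed, limma-voom called 1 of the 2, SLC7A11.

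In the order of the members by level, SLC7A11 and CHAC1 each stood 2 places lower in shNME7, and GCLM and AIFM2 changed places at the end. In shCtrl the means ran from GPX4 at 82.1 FPKM through CTH at 49.4, ACSL4 at 32.2, CHAC1 at 26.8, SLC7A11 at 23.5, GSR at 20.1, GSS at 17.9, GCLC at 8.92 and GCLM at 7.28 to AIFM2 at 6.28 FPKM. CHAC1 and SLC7A11 were the only neighbours in that order whose ranges overlapped. In shNME7, GPX4, CTH and ACSL4 again came first, followed by GSR at 21.2 and GSS at 17.4 FPKM. CHAC1 and SLC7A11 came sixth and seventh at 9.87 and 8.44 FPKM, ahead of GCLC at 8.07, AIFM2 at 6.82 and GCLM at 5.39 FPKM. From CHAC1 downwards each neighbour overlapped the next in shNME7. In the shNME7 libraries, SLC7A11 thus overlapped in level with GCLC, from which it was apart in shCtrl. Because SLC7A11 and CHAC1 were chosen for their lower level in shNME7, nothing is read from their changed places.

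SLC7A11 and CHAC1, chosen because both were lower in shNME7, had like profiles across the single libraries. The measure was the Euclidean distance between log2(FPKM + 1) profiles over the 4 libraries, each centred on its gene's mean, among 7676 genes with a mean of at least 5 FPKM. CHAC1 was the nearest of all genes to SLC7A11 (distance 0.32), and SLC7A11 the third nearest to CHAC1. The ratio of SLC7A11 to CHAC1 was 0.751 and 1.03 in shCtrl and 0.886 and 0.812 in shNME7, so it overlapped between the groups. With 4 libraries, any pair of genes that is low in both shNME7 libraries by a like amount comes out near. SLC7A11 and CHAC1 were chosen for such a fall, so nothing is read from their nearness.

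The nearest genes to CHAC1 were INHBE (0.17), MT-TT (0.23), SLC7A11 (0.32), TRIB3 (0.36) and SESN2 (0.39). INHBE, an activin subunit gene, was at 13.8 and 9.50 FPKM in shCtrl and 4.28 and 2.89 FPKM in shNME7. SESN2, the stress-induced gene of sestrin 2, was at 25.1 and 18.6 FPKM in shCtrl and 12.3 and 8.85 FPKM in shNME7. In both genes, as in CHAC1, shCtrl 1 was the highest library and shNME7 2 the lowest.

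For SLC7A11 the next nearest after CHAC1 were SNRPGP4 (0.37), ERRFI1 (0.39), MT-TT (0.42) and INHBE (0.47). ERRFI1, an inhibitor of the EGF receptor, was at 14.8 and 16.0 FPKM in shCtrl and 9.20 and 5.36 FPKM in shNME7. The pseudogene SNRPGP4 and the mitochondrial tRNA gene MT-TT rested on 9 to 36 and 3 to 10 fragments per library. Of the other members, GCLM was the 219th and ACSL4 the 351st nearest to SLC7A11, while GPX4 was the 6719th.

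**Figure D3:**
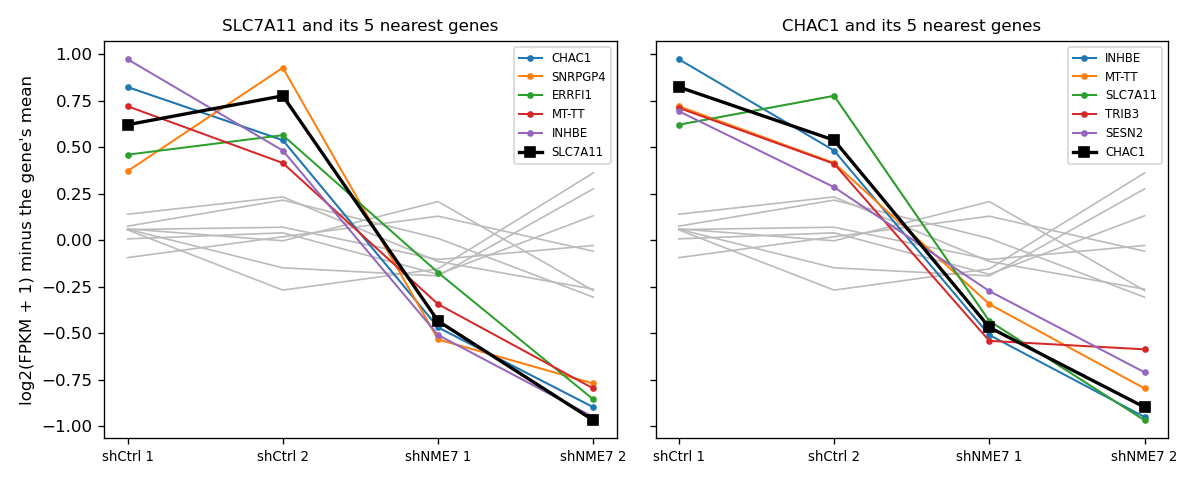
log2(FPKM + 1) of each gene in each library, minus the gene's mean over the 4 libraries, for SLC7A11 (left, black) and CHAC1 (right, black) with their 5 nearest genes (coloured) and the other members (grey). Lines only join the points of a gene. SLC7A11 and CHAC1, both chosen for their fall in shNME7, run together with INHBE and MT-TT in both panels, apart from the band of the other 8 members near 0.

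Genes of the pathway beyond the members were taken from 9 lists with 139 genes, of which 120 were tested. limma-trend called 0 of the 120 over all genes, and limma-voom called 1 of 124, FTL, which was lower. Of the 120, 22 (18.3%) had both shNME7 libraries below both controls and 24 (20.0%) above, beside 18.4% and 17.8% of all genes. The median difference was 0.04, beside 0.01 over all genes. By list, the share below both controls was largest for the regulators (55.6%), iron handling (44.4%) and the lipid side (26.3%). The share above both was largest for thioredoxin and peroxiredoxin (41.7%), selenium handling (37.5%), other suppressors (30%) and glutathione-using enzymes (26.3%).

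Among the supply genes for cystine and cysteine, 13 of 18 were tested, 8 with a lower and 5 with a higher mean, 0 called, and the median was -0.02. It became 0.07 without shCtrl 1 and 0.03 without shNME7 2, and after removal of the GC and length trend limma-voom had 6 of the 13 lower and 7 higher. SLC3A2 had the largest difference, followed by the mitochondrial sulfur enzymes TST, at 14.1 ± 1.96 and 17.8 ± 4.59 FPKM, and ETHE1, at 8.16 ± 1.92 and 9.91 ± 0.879 FPKM (SD, n = 2), both with overlapping groups. The groups of this list did not overlap for 2 genes, SLC3A2 and the cysteine and glutamate transporter SLC1A1, both lower. That is 15.4% of the genes tested in this list, beside 18.4% of all genes. For breakdown and transport of glutathione, 11 of 14 were tested, 4 lower and 7 higher, with 0 called and a median of 0.05. That median was 0.22 without shNME7 1, 0.16 without shCtrl 1, 0.0062 without shNME7 2 and 0.01 with the GC and length trend removed. Besides CHAC2, the dipeptidase CNDP2 was higher in both shNME7 libraries, at 4.98 and 4.13 against 5.26 and 5.93 FPKM. SLC25A40, a mitochondrial glutathione carrier, was lower in both, at 7.06 and 7.74 against 7.02 and 5.45 FPKM. Of this list, 18.2% thus lay above and 9.09% below, beside 17.8% and 18.4% of all genes.

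Of the enzymes that use glutathione, 15 of 19 tested genes had a higher mean and 4 a lower one, the median was 0.09 and 0 were called. GPX1, the cytosolic glutathione peroxidase, was at 253 and 165 FPKM in shCtrl and 213 and 324 FPKM in shNME7, a difference of 0.36 (limma-trend adjusted p 0.836) that was 0.15 with the GC and length trend removed. The GPX1 difference was 0.05 without shCtrl 2, 0.06 without shNME7 2, 0.67 without shCtrl 1 and 0.66 without shNME7 1. GPX1 and GPX4 had the same order of libraries at the extremes, with shNME7 2 the highest and shCtrl 2 the lowest. The microsomal transferase MGST2 was at 5.53 and 4.66 FPKM in shCtrl and 6.80 and 6.11 FPKM in shNME7, and the transferase GSTP1 at 135 and 110 against 129 and 168 FPKM.

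The thioredoxin and peroxiredoxin system, which reduces peroxides beside glutathione, had 10 of 12 tested genes with a higher mean, 0 called and a median of 0.19, which ran from 0.03 (without shNME7 2) to 0.23 with a library left out and was 0.10 under quantile normalization. With the GC and length trend removed, 7 of the 12 had a higher mean in limma-trend and 8 in limma-voom. The mitochondrial peroxiredoxin PRDX3 was at 63.6 and 64.3 FPKM in shCtrl and 78.4 and 74.8 FPKM in shNME7. PRDX5 stood at 255 and 166 against 208 and 348 FPKM, and its groups overlapped. TXNRD1, thioredoxin reductase and an NRF2 target, stood at 80.8 and 86.0 against 77.0 and 79.5 FPKM. The TXNRD1 difference of -0.09 did not pass (limma-trend adjusted p 0.895) and was 0.0053 in limma-voom after removal of the GC and length trend. TXNIP, the inhibitor of thioredoxin, stood at 83.1 and 91.0 against 86.1 and 59.1 FPKM.

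On the lipid side, 19 of 23 genes were tested, 12 lower and 7 higher, 0 called, with a median of -0.04 that became 0.06 without shNME7 1. It was -0.12 without shNME7 2. In this list 5 genes, 26.3% beside 18.4% of all genes, had both shNME7 libraries below the controls: ACSL1, ACSL3, ACSL5, SCD and AGPS. SCD, the desaturase that makes monounsaturated fatty acids, was at 381 and 409 FPKM in shCtrl and 315 and 305 FPKM in shNME7 (difference -0.35, limma-trend adjusted p 0.748). AGPS, an enzyme of ether lipid synthesis, stood at 19.0 and 21.2 against 17.0 and 14.5 FPKM. ACSL5, named here after its values were seen, stood at 1.62 and 1.87 against 0.675 and 0.653 FPKM from 43 to 128 fragments, and its difference of -0.72 did not pass (limma-trend adjusted p 0.603, limma-voom 0.142).

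Other suppressors of ferroptosis and the coenzyme Q synthesis genes had 16 of 20 tested genes with a higher mean, 0 called, and a median of 0.05 that was 0.08 without shCtrl 2 and 0.03 without shNME7 2. HSPB1, a small heat shock protein gene, stood at 214 and 146 against 177 and 268 FPKM, the cysteine desulfurase gene NFS1 at 7.97 ± 0.0336 against 9.19 ± 0.236 FPKM (SD, n = 2), and the coenzyme Q side chain gene PDSS2 at 9.03 and 9.19 against 8.20 and 7.44 FPKM. For selenium handling, on which GPX4 depends for its selenocysteine, 8 of 10 genes were tested, 3 lower and 5 higher, 0 called, with a median of 0.09 that was 0.0097 without shNME7 2 and 0.02 without shCtrl 2. The selenophosphate synthetase SEPHS2 stood at 30.8 and 26.1 against 28.7 and 33.9 FPKM, the elongation factor EEFSEC at 10.6 and 9.01 against 7.64 and 9.24 FPKM, and the selenoprotein P receptor LRP8 at 9.31 and 9.87 against 10.4 and 10.8 FPKM.

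Of the transcriptional regulators of the members, all 9 were tested and 7 had a lower mean, 5 of them (55.6% of the list, beside 18.4% of all genes) with both shNME7 libraries below both controls. The median was -0.38, and 0 were called by limma-trend or limma-voom. After removal of the GC and length trend, 8 of the 9 were lower by limma-voom. ATF4 stood at 261 and 257 FPKM in shCtrl and at 207 and 182 FPKM in shNME7 (difference -0.41, limma-trend adjusted p 0.729). DDIT3, the CHOP gene, stood at 26.4 and 17.9 against 17.4 and 8.96 FPKM, and ATF3 at 7.47 and 6.48 against 4.66 and 4.42 FPKM. The DDIT3 difference of -0.75 was -0.31 without shNME7 2 and -1.19 without shNME7 1. NFE2L2 stood at 14.4 and 15.0 against 13.1 and 9.40 FPKM (difference -0.38, limma-trend adjusted p 0.793), and the NFE2L2 difference was -0.16 without shNME7 2 and -0.60 without shNME7 1. Their part in the levels of SLC7A11 and CHAC1 was not tested.

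Iron-handling genes, which set the iron available for lipid peroxidation, had 5 of 9 tested means lower and 4 higher, with a median of -0.05 that became 0.02 without shNME7 1, -0.10 without shNME7 2 and -0.12 under quantile normalization, where 6 were lower and 3 higher. FTL, the ferritin light chain gene, fell in limma-voom, from 993 and 850 FPKM in shCtrl to 458 and 493 FPKM in shNME7 (difference -0.95, adjusted p 0.0219). That call was lost without shCtrl 1 (-0.84, adjusted p 0.146), and limma-trend did not make it (adjusted p 0.440). FTL has processed pseudogene copies that can share its reads, so its value is uncertain. IREB2, an iron-responsive regulator, stood at 21.7 and 25.4 against 17.1 and 15.9 FPKM, and HMOX1, heme oxygenase 1, at 11.1 and 10.4 against 7.36 and 9.89 FPKM.

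**Figure D4:**
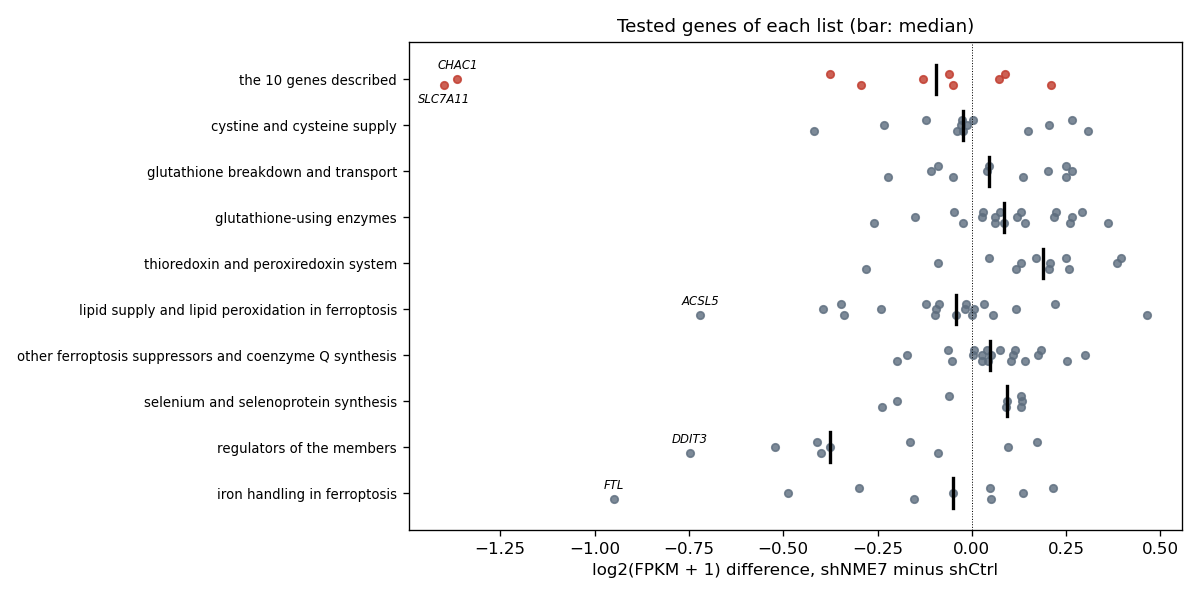
log2(FPKM + 1) difference, shNME7 minus shCtrl, of each tested gene (points) of the 10 members and of the 9 pathway lists, with the list's median (bar) and names where the difference is below -0.6. SLC7A11 and CHAC1 at -1.40 and -1.36 lie apart from the other 8 members and from the 120 list genes, which run from -0.95 (FTL) to 0.46. Both were chosen for this difference, so nothing is read from their lying apart.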

How the data were processed

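Each of the 4 libraries has its own deposited table of 58735 genes, whose unit is FPKM per the file headers. HISAT2 2.0.5 and the build hg18 are listed per the submitters' processing notes. For the counting tool, annotation and filters nothing is stated in the labels. All 58735 IDs matched GENCODE release 29 (Ensembl release 94), from which names, exon lengths and GRCh38 coordinates were taken.

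FPKM times exon length gave whole multiples of a step in each library (100% of genes above 0 within 0.01), so fragments were recovered. A count of 0 allows 3 fragments per library. The main test was limma-trend (limma 3.58.1, R 4.3.3) on log2(FPKM + 1), which understates the change of low genes, for 12866 genes with a mean of at least 1 FPKM. All 10 members passed this filter. P-values were two-sided and adjusted by the Benjamini-Hochberg method over all genes tested, with a threshold of 0.05. limma-voom used 15112 genes whose mean was 10 fragments or more. The loess trend had a span of 0.3 and used the genes with a GC value, 12857 for limma-trend and 15104 for limma-voom. Both tests were tested on simulated data.

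The members and lists were chosen with earlier results of these data known. Named were the members, NME7, listed paralogs, partners and regulators, each list gene called by either test, the 3 genes per list with the largest difference at 5 FPKM or more in the higher group, and the 5 genes nearest in profile to SLC7A11 and to CHAC1.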

Additional observations from a re-analysis of the deposited data

How the results depend on the processing

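limma-trend called 0 genes, 0 members and 0 pathway genes with a pseudocount of 0.1, with no filter on low values and under quantile normalization. The GC and length trend removed, it called 1 gene. limma-voom called 16 genes, 2 members and 1 pathway gene, and 13, 1 and 1 with that trend removed. With each library left out in turn, limma-trend called 112 to 632 genes, 2 members each time and 0 to 3 pathway genes, and limma-voom 28 to 430 genes, 2 members each time and 0 to 6 pathway genes. The highest counts came without shNME7 1. The single library left in a group is taken to vary as the other group does. As a replicate block, the number gave 122 genes and 2 members. Same-numbered libraries deviated in opposite ways (correlation -0.35, taken across genes). Whether the numbers mark a shared culture or batch cannot be told from this. A block with the numbers crossed, added after seeing the data as were the limma-voom fits with a library left out, called 0 genes.

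The count of members below the controls was 4 with the trend removed, GCLC overlapping, and ran from 5 to 7 with a library left out. With fewer libraries, groups fail to overlap more easily. The share of all genes was not counted in these settings, so nothing is read from these counts. Over 12 alternatives SLC7A11 ran from -1.67 to -1.13 and CHAC1 from -1.69 to -1.15. CTH, GSS, GSR, GPX4 and AIFM2 changed sign in at least 1. Among these alternatives, dropping the filter or adding either block cannot change a gene's difference, so they do not bear on these ranges. Of the other named genes CBS reversed, running from -0.62 to 0.56 with a library left out (0.043 without shNME7 2). NQO1 reversed to -0.067 under quantile normalization and ran from -0.077 (without shNME7 2) to 0.081 with a library left out (-0.032 without shCtrl 2), and TXNRD1 to 0.0053 in limma-voom with the trend removed. The cause was not tested. The other 8 members rested on 429 fragments or more per library.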
